A study of Homo sapiens with 6 samples.

Results

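The genes described here encode sorting nexins, the retromer complex, clathrin and the adaptors that load cargo into clathrin-coated pits. They were chosen by name, as the probe sets whose platform symbol was on a list of 49 genes, and the list was drawn up because EPS15 and several SNX genes were higher in the overexpressing cells. Of the 49 genes, 47 had a probe set of their own, among 22411 such genes on the array, and 46 passed the filter on dim probe sets. SNX15 and EPN2 lay only on probe sets shared with other symbols and were not tested. SNX10 was too dim to test, with a mean of 3.81 ± 0.05 in overexpressing cells and 3.78 ± 0.04 in control cells (SD, n = 3 each).

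Expression was measured on Affymetrix arrays as log2 RMA values. There were 3 arrays for U87 MG cells that stably overexpress GUCY1B3 and 3 titled only U87 MG, called control here. GUCY1B3 is the beta subunit of soluble guanylate cyclase, the nitric oxide receptor that makes cGMP, and it was introduced on the plasmid pCDNA3.1D/V5-His-TOPO, which drives its insert from a viral promoter. U87 MG is an established human glioblastoma line. Both groups were untreated and grown in DMEM with serum. The labels name no empty-vector cells and do not say whether the stable cells were a clone or a pool or whether replicates were separate cultures, so the spread between arrays may be technical.

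GUCY1B3 (current symbol GUCY1B1) read 8.10, 8.18 and 8.40 in overexpressing cells, against 7.45, 7.70 and 7.49 in control cells. The groups did not overlap, and whether this probe set reads the plasmid's transcript is not known. Of 11 glial and glioma markers, 9 lay above the array median on all 6 arrays, VIM at 12.15 ± 0.03 in overexpressing cells and 12.09 ± 0.08 in control cells, while the astrocyte genes AQP4 and FABP7 lay below it on every array and GFAP was dim (5.80 ± 0.08 in overexpressing and 5.70 ± 0.09 in control cells, SD, n = 3 each). The same held for 4 of 6 epithelial, 2 of 4 haematopoietic, 3 of 4 endothelial and 3 of 4 neuronal markers, so the array median did not separate the marker lists. EPCAM, PTPRC, PECAM1 and MAP2 lay below it on all 6 arrays, while the macrophage and lysosomal gene CD68 read 10.96 ± 0.01 in overexpressing cells and 10.98 ± 0.24 in control cells (SD, n = 3 each). Among the glial markers NES and SLC1A3 were called higher and TNC lower, and their part in the members' differences was not tested. The summed level of the 11 ran between 77.59 and 77.89 on overexpression arrays and between 76.53 and 77.42 on control arrays. CDKN2A and CDKN2B, which this line is known to have lost, also lay above the median on all 6 arrays, CDKN2A at 5.22 ± 0.07 in overexpressing and 5.18 ± 0.05 in control cells and CDKN2B at 5.50 ± 0.09 in overexpressing and 5.39 ± 0.09 in control cells. The glial markers SOX2 (5.30 ± 0.07 in overexpressing and 5.32 ± 0.07 in control cells) and S100B (5.49 ± 0.08 in overexpressing and 5.37 ± 0.06 in control cells) stood as close to the array medians of 4.97 to 5.03, so a place above the median does not by itself show expression. The summed level of the haematopoietic markers ran between 24.49 and 24.89 on overexpression arrays and between 24.23 and 24.83 on control arrays.

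Clathrin-mediated uptake starts when adaptors such as AP2, epsins and EPS15 gather cargo at the plasma membrane and recruit clathrin, and it ends when dynamin cuts the coated vesicle free. Sorting nexins carry a PX domain that binds phosphoinositides, and many also carry a BAR domain that bends membrane. With retromer and its relative retriever they return receptors from endosomes to the Golgi or the cell surface. In glioma cells this traffic handles growth factor receptors, integrins and nutrient receptors.

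Of the 46 tested members, 9 were higher and 4 lower in overexpressing cells at an adjusted p under 0.05 (limma, Benjamini-Hochberg over 15823 genes). Over all tested genes 6.38% were called higher and 4.53% lower. The members were picked for rises in this same comparison, so these counts are a description and carry no p-value here. The higher members were EPS15, SNX8, SNX13, SNX6, ITSN1, CLTB, SNX19, SNX7 and SNX9, and the lower ones EPS15L1, SNX33, DNM2 and CLTC. The 3 overexpression arrays all lay above the control arrays for 12 members and all below for 5, against 17.1% and 12.2% of all tested genes. The median difference of the 46 members was 0.05 on the log2 scale, and that of all tested genes was 0.02. An unadjusted p under 0.05, given below for lists with few or no calls, was reached by 25.0% of all tested genes.

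**Figure D1:**
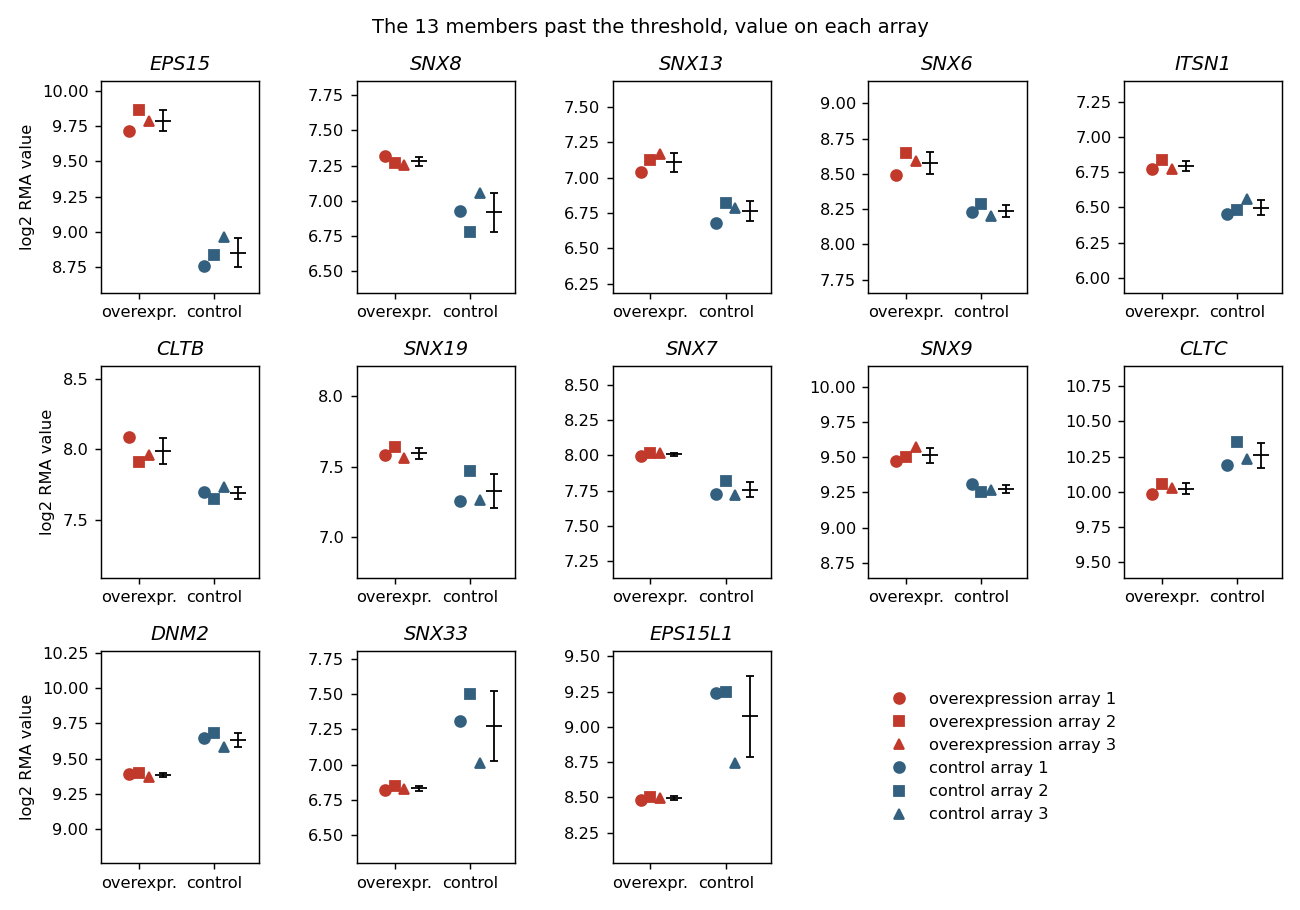
Log2 RMA value of each of the 13 called members on each array, overexpression (red, left) and control (blue, right), with the mean and SD of 3 arrays in black. Each panel spans 1.5 log2 units, and in all 13 panels the groups do not overlap, most widely for EPS15, where overexpression arrays lie between 9.71 and 9.86 and control arrays between 8.76 and 8.96.

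Among the early adaptors and scaffolds, EPS15 and its paralog EPS15L1 stood on opposite sides. EPS15 is a scaffold whose EH domains bind other adaptors and whose tail binds AP2. Its probe set on chromosome 1 (TC01002649.hg.1) read 9.71, 9.86 and 9.79 in the overexpressing line and 8.76, 8.83 and 8.96 in the control line. The lowest overexpression array lay 0.75 above the highest control array, the widest gap among the members. The difference was 0.94 ± 0.07 (SE), or 1.91-fold. In bulk RNA, more cells that express a gene and more RNA per cell cannot be told apart.

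EPS15L1, which shares the domain layout of EPS15 and also binds AP2, was lower. Its probe set on chromosome 19 (TC19001265.hg.1) read 8.48, 8.51 and 8.50 in overexpressing cells, against 9.24, 9.25 and 8.74 in control cells. All 3 overexpression arrays were below the controls, but control array 3 lay near them. The difference was -0.58 ± 0.12 (SE), and it was -0.75 without control array 3.

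The 250 bases before the RefSeq start of EPS15, EPS15L1 and CLTB are shown because these 3 members kept their call when the shift of their chromosomal neighbours was removed. Capitals mark GC boxes (GGGCGG on either strand, overlapping matches counted) and, in CLTB, the cAMP response element TGACGTCA.
EPS15 (GRCh38.p14, chr1:51519267-51519516, minus strand): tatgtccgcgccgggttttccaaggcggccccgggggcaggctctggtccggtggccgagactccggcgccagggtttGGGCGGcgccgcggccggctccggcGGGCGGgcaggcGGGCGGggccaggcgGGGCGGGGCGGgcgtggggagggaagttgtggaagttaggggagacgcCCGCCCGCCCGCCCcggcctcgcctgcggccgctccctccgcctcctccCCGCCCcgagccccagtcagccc
EPS15L1 (GRCh38.p14, chr19:16471971-16472220, minus strand): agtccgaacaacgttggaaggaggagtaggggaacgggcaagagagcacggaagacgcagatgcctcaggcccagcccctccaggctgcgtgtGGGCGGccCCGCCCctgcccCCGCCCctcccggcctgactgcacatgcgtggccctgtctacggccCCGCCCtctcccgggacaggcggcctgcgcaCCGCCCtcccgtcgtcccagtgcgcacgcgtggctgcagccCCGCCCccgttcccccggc
CLTB (GRCh38.p14, chr5:176416570-176416819, minus strand): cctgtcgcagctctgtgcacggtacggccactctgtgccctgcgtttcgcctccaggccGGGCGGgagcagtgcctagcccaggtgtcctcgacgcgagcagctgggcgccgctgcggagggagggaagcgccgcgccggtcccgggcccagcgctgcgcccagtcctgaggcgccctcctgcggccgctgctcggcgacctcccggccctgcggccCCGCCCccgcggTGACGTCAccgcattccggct
The EPS15 window held 9 GC boxes and was 80.4% G or C, and that of EPS15L1 held 6 and was 74.0% G or C. The CLTB window held 2 GC boxes and 1 TGACGTCA and was 76.4% G or C. The EPS15 and EPS15L1 windows held neither the E-box CACGTG nor TGACGTCA. Of the 46 tested members, 41 had a promoter in the RefSeq table. A GC box was present in 34 of these 41 (82.9%) and in 42.3% of all 27305 promoters of the same length, coding and non-coding. The members' windows were also richer in G and C, with a median of 68.4% against 58.0% over all promoters. TGACGTCA lay in 3 of 41 member promoters, those of SNX5, CLTB and AP2B1, and in 1.77% of all. The E-box was found in 1, that of SNX8, and in 6.49% of all. Matches describe the letters only.

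The remaining early adaptors moved less. ITSN1, an EH and SH3 scaffold that binds EPS15 and dynamin, read 6.77, 6.84 and 6.77 in the overexpressing line and 6.45, 6.49 and 6.56 in the control line, without overlap. Its difference was 0.30 ± 0.05 (SE), while that of its paralog ITSN2 was 0.03 ± 0.07. FCHO2, an F-BAR protein that helps start pits, had a difference of 0.12 ± 0.07, and STON2, an adaptor for synaptotagmins, one of 0.06 ± 0.07. DAB2, an adaptor for LDL receptor family cargo, and PICALM, which sets vesicle size and SNARE content, differed by -0.01 ± 0.07 and -0.03 ± 0.05. The ubiquitin-binding epsin EPN1 read 8.60, 8.50 and 8.55 in overexpressing cells, against 8.77, 8.85 and 8.29 in control cells. Its overexpression values thus lay inside the range of the controls, with control array 3 the lowest of all 6.

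**Figure D2:**
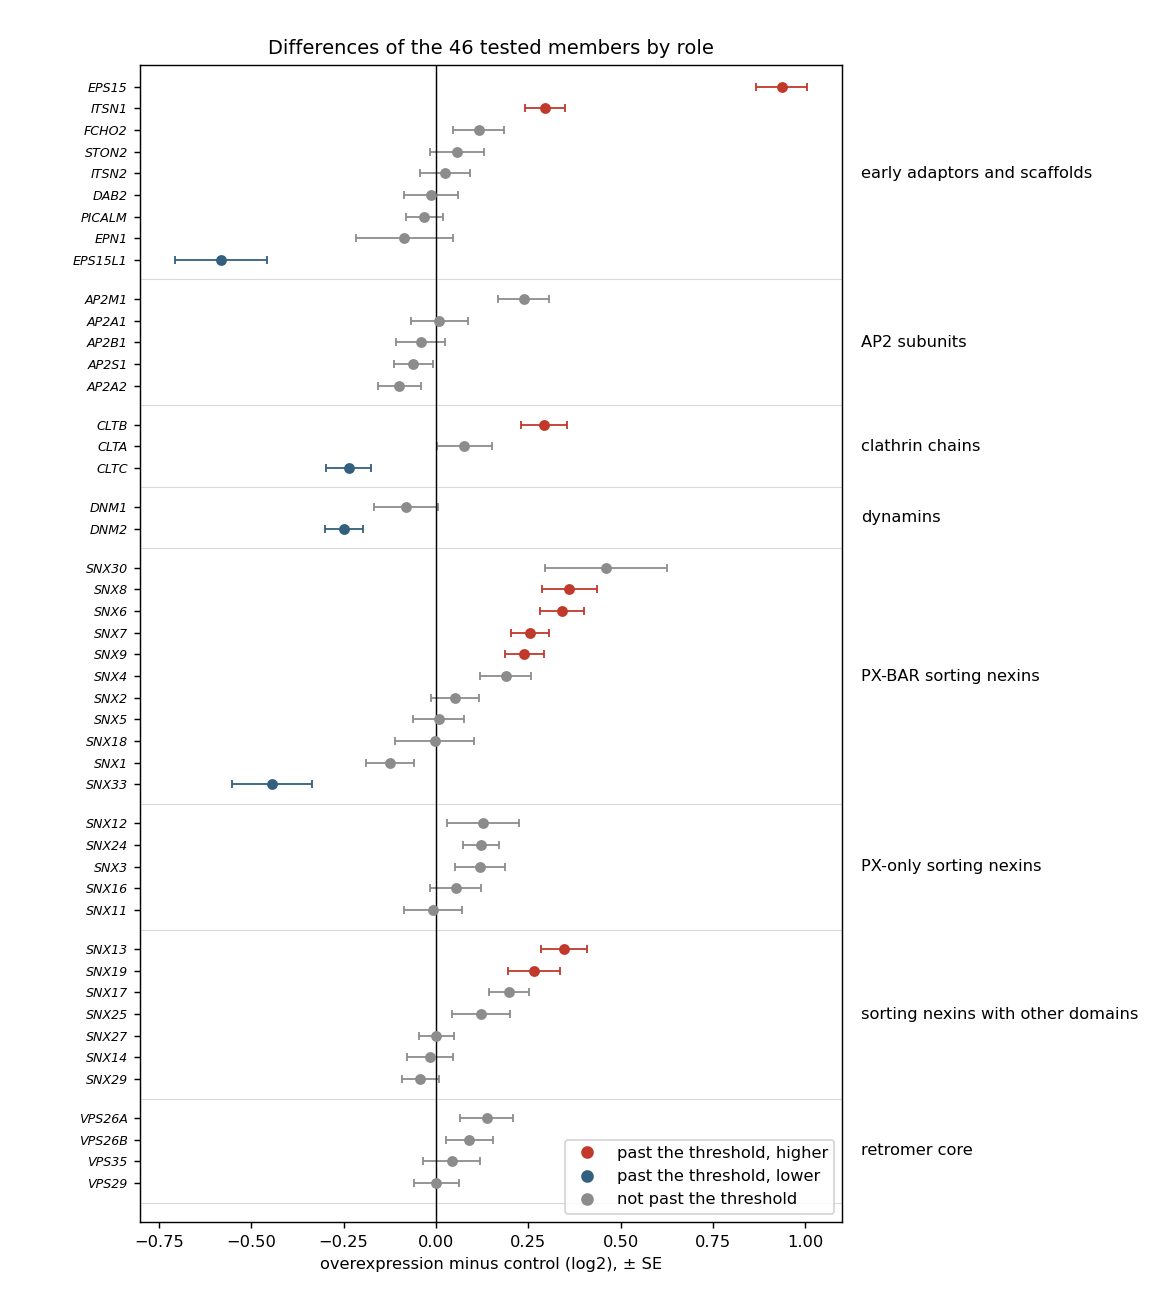
Overexpression minus control (log2, point) with its standard error (bar) for the 46 tested members, grouped by role, with those past the threshold in red (higher) and blue (lower). EPS15 at 0.94 and EPS15L1 at -0.58 are the extremes, and the 4 retromer and 5 AP2 subunits hold no member past the threshold.

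The clathrin chains differed in direction. CLTB, the light chain b that sits on the clathrin hub, read 8.09, 7.91 and 7.96 in the overexpressing line and 7.70, 7.65 and 7.73 in the control line, a difference of 0.29 ± 0.06 (SE). The light chain CLTA read 8.35, 8.35 and 8.25 in overexpressing cells and 8.18, 8.15 and 8.39 in controls, and its groups overlapped. CLTC, the heavy chain that forms the lattice, was lower on all 3 overexpression arrays. It read 9.98, 10.06 and 10.03 in overexpressing cells, against 10.19, 10.36 and 10.23 in control cells, a difference of -0.24 ± 0.06 (SE).

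Dynamins were lower or overlapping. DNM2, the ubiquitous dynamin, read 9.39, 9.40 and 9.37 in the overexpressing line and 9.64, 9.68 and 9.58 in the control line. The difference was -0.25 ± 0.05 (SE), with little spread in either group. DNM1, the form best known from neurons, had a mean of 8.14 ± 0.03 in overexpressing cells and 8.22 ± 0.18 in control cells (SD, n = 3 each), and its groups overlapped.

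Of the 5 AP2 subunits, 0 passed limma's threshold and 1 had an unadjusted p under 0.05 (25.0% of all genes did). An ordinary equal-variance test called 0 of them. The 1 was AP2M1, the medium subunit that reads tyrosine-based sorting signals. It read 10.20, 10.21 and 10.17 in overexpressing cells, against 10.02, 10.03 and 9.82 in control cells, without overlap, a difference of 0.24 ± 0.07 (SE). The large subunits AP2A1, AP2A2 and AP2B1 and the small subunit AP2S1 had differences between -0.10 and 0.01, and their groups overlapped in each case. AP2A1 read 8.81, 8.77 and 8.76 in overexpressing cells and 8.83, 8.88 and 8.60 in controls. AP2A2 read 8.42, 8.44 and 8.45 in overexpressing cells and 8.56, 8.59 and 8.45 in controls, with control array 3 the control that met the overexpression range. AP2B1 read 10.47, 10.57 and 10.61 in overexpressing cells and 10.49, 10.65 and 10.64 in controls, and AP2S1 read 9.58, 9.66 and 9.60 in overexpressing cells and 9.68, 9.71 and 9.64 in controls. Of the 5 AP2 genes, 1 thus had separated groups and 4 did not. Over all tested genes, overexpression arrays lay all above the controls in 17.1% and all below in 12.2%.

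Among the 11 sorting nexins with a BAR domain, 4 were higher and 1 lower, against 6.38% and 4.53% of all tested genes. These calls were lost when the shift of their chromosomal neighbours was removed. SNX33 then still stood at -0.37, against -0.44 before removal. SNX8, which acts in transport between endosomes and the Golgi, read 7.32, 7.27 and 7.25 in the overexpressing line and 6.92, 6.78 and 7.05 in the control line, a difference of 0.36 ± 0.07 (SE). SNX6, which pairs with SNX1 or SNX2 in the endosomal exit coat, read 8.49, 8.65 and 8.59 in overexpressing cells, against 8.23, 8.28 and 8.20 in control cells (0.34 ± 0.06). Its partners and its paralog SNX5 were not called. SNX1 differed by -0.12 ± 0.06, SNX2 by 0.05 ± 0.07 and SNX5 by 0.01 ± 0.07.

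SNX7, a partner of SNX4 in recycling and autophagy, read 8.00, 8.01 and 8.02 in the overexpressing line and 7.73, 7.82 and 7.72 in the control line (0.25 ± 0.05, SE). SNX4 itself read 8.03, 8.15 and 8.15 in overexpressing cells, against 7.86, 7.86 and 8.04 in control cells (0.19 ± 0.07), with control array 3 just above overexpression array 1. The other SNX4 partner, SNX30, had the greatest difference of any sorting nexin, 0.46 ± 0.17, but was not called. It read 8.30, 8.47 and 8.07 in the overexpressing line and 7.66, 7.59 and 8.21 in the control line. Control array 3 lay inside the overexpression range, and without it SNX30 was called higher.

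The SNX9 family, which joins dynamin and actin assembly at the necks of pits, was split. SNX9 read 9.47, 9.50 and 9.57 in overexpressing cells, against 9.31, 9.25 and 9.26 in control cells (0.24 ± 0.05, SE). SNX33 was lower, with 6.82, 6.85 and 6.83 in the overexpressing line and 7.31, 7.50 and 7.01 in the control line (-0.44 ± 0.11). The overexpression arrays lay close together while the controls spread between 7.01 and 7.50. SNX18, the remaining relative, had a mean of 5.22 in both groups, with an SD of 0.03 in overexpressing cells and 0.24 in control cells. This is near the level of CDKN2A, a gene lost in this line (5.22 in overexpressing and 5.18 in control cells). The SNX18 signal thus does not by itself show expression.

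Of the sorting nexins with further domains, SNX13 and SNX19 were higher. SNX13, which carries PXA and RGS-type domains and is tied to lipid handling at endosomes, read 7.04, 7.12 and 7.17 in overexpressing cells, against 6.68, 6.82 and 6.79 in control cells (0.35 ± 0.06, SE). Its relatives SNX14 and SNX25 had differences of -0.02 ± 0.06 and 0.12 ± 0.08. SNX19, a PXA-domain relative found where the ER meets endolysosomes, read 7.58, 7.64 and 7.57 on the overexpression arrays, against 7.26, 7.47 and 7.26 on the control arrays (0.27 ± 0.07). SNX17, the FERM-domain cargo adaptor of retriever, read 7.77, 7.76 and 7.72 in the overexpressing line and 7.53, 7.51 and 7.63 in the control line. Its groups did not overlap, though it was not called (0.20 ± 0.05). SNX29 also had separated groups, with the overexpression arrays lower, but by a difference of -0.04 ± 0.05. SNX27, the FERM-domain adaptor of retromer, had a mean of 8.02 ± 0.01 in both groups (SD, n = 3 each).

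In the 5 tested sorting nexins with a PX domain alone, 0 passed limma's threshold and 1 had an unadjusted p under 0.05, a share near the 25.0% of all genes. The same gene was called by the ordinary test. It was SNX24, at 6.23, 6.26 and 6.26 in overexpressing cells, against 6.15, 6.11 and 6.13 in control cells, a difference of 0.12 ± 0.05 (SE). SNX3, which works with retromer on Wntless, had the same difference (0.12 ± 0.07) with overlapping groups, and SNX12, its closest relative, 0.13 ± 0.10. SNX11 and SNX16 differed by -0.01 ± 0.08 and 0.05 ± 0.07.

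The retromer core selects cargo and works with the sorting nexins at the endosome. Of its 4 subunits, 0 passed limma's threshold and 0 had an unadjusted p under 0.05, against 25.0% of all genes. The ordinary test called 0. VPS35, the scaffold, read 10.31, 10.45 and 10.41 in the overexpressing line and 10.31, 10.23 and 10.49 in the control line. VPS26A read 8.50, 8.62 and 8.54 on the overexpression arrays, against 8.35, 8.34 and 8.56 on the control arrays, and VPS26B 7.71, 7.69 and 7.66 in overexpressing cells and 7.53, 7.55 and 7.71 in controls. In both, control array 3 alone of the controls met the overexpression range. VPS29 read 6.41, 6.52 and 6.50 in overexpressing cells and 6.39, 6.48 and 6.55 in controls, a difference of 0.00 ± 0.06 (SE). On a second, dimmer probe set VPS29 differed by 0.19, and there the groups did not overlap. On the tested probe sets control array 3 was the highest control for all 4 subunits. It stood above the mean of the other controls by a median of 0.19, and without it VPS26A was called higher.

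Of the 9 higher members 6 sat among genes that were higher as well. For each tested gene the median difference was taken over the 10 nearest tested genes on each side of its chromosome, in RefSeq order. Over all tested genes this neighbourhood value had a median of 0.02, with a 5th percentile of -0.07 and a 95th of 0.11. It lay above that 95th percentile for 6 members, all of them called higher, and by construction for 5.0% of all genes. The neighbours' value was 0.30 for SNX6 on chromosome 14, 0.22 for SNX9 on chromosome 6, 0.20 for ITSN1 on chromosome 21 and for SNX13 on chromosome 7, 0.17 for SNX7 on chromosome 1 and 0.16 for SNX8 on chromosome 7. Over all genes called higher, 21.4% had such a neighbourhood.

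The shift of the neighbours was present on each overexpression array. For SNX6 the neighbours' median stood 0.28, 0.31 and 0.33 above the control mean on overexpression arrays 1 to 3, and 14 of its 20 neighbours were called higher. For SNX9 the values were 0.19, 0.22 and 0.17, with 8 of 20 called higher. Around EPS15 6 of 20 neighbours were called higher and 2 lower, against 6 higher and 0 lower for ITSN1 and SNX13 and 5 higher and 0 lower for SNX7 and SNX8. The EPS15 neighbours' median stood 0.11, 0.05 and 0.11 above the control mean, and its own difference exceeded their median of 0.08 by 0.85. The EPS15 neighbourhood value of 0.08 lay between the median of all genes (0.02) and the 95th percentile (0.11). CLTB and SNX19 had neighbours near the median of all genes (0.03 each), as did DNM2 and CLTC (0.00 each) and EPS15L1 (-0.02). The neighbours of SNX33 had a median of -0.08, just under the 5th percentile.

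**Figure D3:**
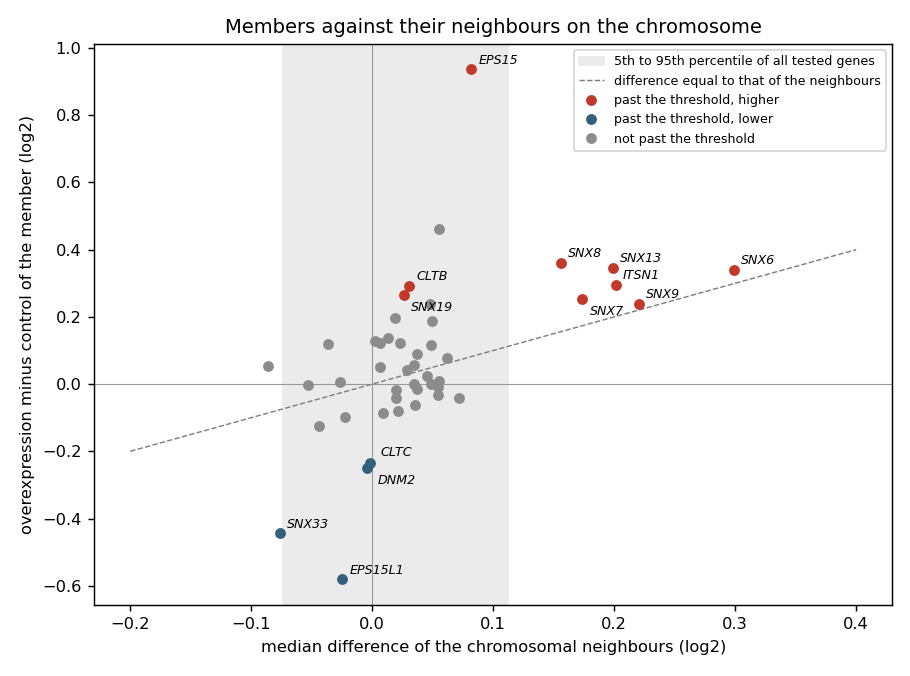
Difference of each tested member (vertical, log2) against the median difference of its chromosomal neighbours (horizontal, log2), with the 5th to 95th percentile of that median over all tested genes shaded. SNX6, SNX9, ITSN1, SNX13, SNX7 and SNX8 lie to the right of the shaded band on or above the dashed line of equal differences, and EPS15 lies inside the band at 0.94.

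When the regional median was removed from each array, 2 members were higher, EPS15 and CLTB, and 1 lower, EPS15L1. Of all genes 3.74% were then called higher and 3.53% lower. The difference of SNX6 was 0.04 after removal, that of SNX9 0.06, of ITSN1 0.09, of SNX7 0.09, of SNX13 0.14 and of SNX8 0.20. EPS15 stayed at 0.82, EPS15L1 at -0.54 and CLTB at 0.24. SNX33 (-0.37), SNX19 (0.22), DNM2 (-0.21) and CLTC (-0.20) lost their calls with most of their difference left. Before removal these stood at -0.44, 0.27, -0.25 and -0.24. What sets the regional shift was not tested.

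The call of EPS15 held under all 16 alternatives, with differences between 0.82 and 0.99. Its rise was among those for which the list was drawn up, and the alternatives refitted the same arrays. That the EPS15 call held is thus a description and not independent support. The other 12 calls held under fewer. SNX6 and SNX13 kept theirs in 12, ITSN1 in 11, SNX7, SNX8, CLTB and EPS15L1 in 10, DNM2 in 9, SNX9 in 8 and SNX33 in 7. SNX19 and CLTC kept theirs in 4, and neither was called when the arrays were centred, cyclic-loess normalized or quantile-normalized over named genes. Under those 3 normalizations SNX19 stood at 0.24 each time and CLTC at -0.26, -0.24 and -0.20. Without overexpression array 1 the calls of SNX6, SNX13 and EPS15 held, when 2.11% of all genes were called higher and 1.36% lower. Without overexpression array 2 (1.93% and 1.66%) or 3 (2.74% and 1.88%) only that of EPS15 held. Without control array 1 (3.55% and 2.91%) the calls of SNX6, SNX13, EPS15 and ITSN1 held, and without control array 2 (4.28% and 3.03%) those of SNX7, SNX8 and SNX19 as well. An ordinary equal-variance test called 3 members higher, EPS15, SNX7 and SNX24, and 1 lower, DNM2, against 1.55% and 1.07% of all genes. With a replicate block 6 were higher and 1 lower (3.72% and 2.77% of all genes), and without the filter 8 were higher and 2 lower (4.21% and 2.94%). The sizes moved less than the calls. Over the 6 fits that left out 1 array, SNX6 ranged between 0.31 and 0.38, SNX13 between 0.31 and 0.38, SNX8 between 0.29 and 0.43, CLTB between 0.24 and 0.33, DNM2 between -0.28 and -0.23, CLTC between -0.27 and -0.19, SNX33 between -0.57 and -0.33 and EPS15L1 between -0.75 and -0.50.

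Control array 3 stood apart from the other controls for several members. It lay above their mean by 0.59 for SNX30 and by 0.33 for SNX12, and its deviation was -0.52 for EPN1, -0.50 for EPS15L1 and -0.39 for SNX33. The median deviation was 0.11 over the 23 tested sorting nexins and 0.00 over all tested genes. Without it all 13 calls held, and 16 members were higher and 5 lower, when 13.0% of all genes were called higher and 9.97% lower. The members added were SNX4, SNX12, SNX17, SNX25, SNX30, VPS26A and AP2M1 as higher and EPN1 as lower.

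**Figure D4:**
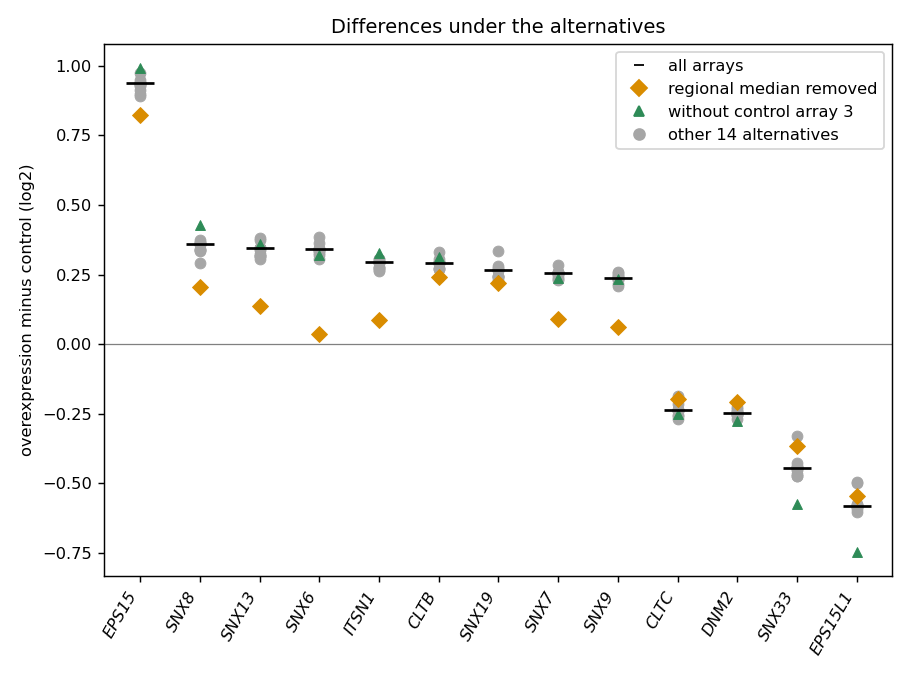
Overexpression minus control (log2) of the 13 called members with all arrays (black bar), with the regional median removed (orange diamond), without control array 3 (green triangle) and under the other 14 alternatives (grey). Removing the regional median brings SNX6, SNX9, ITSN1, SNX7 and SNX13 to between 0.04 and 0.14 and leaves EPS15 at 0.82.

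Other genes of the pathway came from 9 lists of endocytic and endosomal genes that hold no member. Of 237 listed genes 204 were tested, and 18 were higher (8.82%) and 11 lower (5.39%), near the 6.38% and 4.53% of all tested genes. Their median difference was 0.00. The same shares of all tested genes are the background for the counts of each list below. The calls named below are those with the greatest differences in each list, with adjusted p from limma over all tested genes.

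Retriever, the relative of retromer that serves SNX17, had 2 called subunits. VPS35L, its scaffold, rose to 9.43 ± 0.06 in overexpressing cells, against 8.72 ± 0.14 in control cells (SD, n = 3 each), 1.64-fold (adjusted p = 0.00146). VPS26C, the retriever relative of VPS26A, rose 1.32-fold (7.48 ± 0.05 in overexpressing and 7.07 ± 0.14 in control cells, adjusted p = 0.0128), and its neighbours on chromosome 21 had a median of 0.14. Its call was lost without overexpression array 1 or 2, and with the regional median removed, where the difference was 0.27. The third subunit, VPS29, which retromer shares, had a difference of 0.00 ± 0.06 (SE) on its tested probe set. On a dimmer probe set, which was not tested, it was 0.19 and the groups did not overlap. WASHC3, a subunit of the actin-nucleating WASH complex, rose by 0.28 (adjusted p = 0.0211). In the list of retromer partners, WASH and retriever-CCC genes, 3 of 22 were higher and 0 lower, while 7 had an unadjusted p under 0.05 in either direction (25.0% of all genes did) and the ordinary test called 1.

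Of 35 tested clathrin accessory genes 5 were higher and 1 lower, against 6.38% and 4.53% of all tested genes. AMPH, amphiphysin, which binds dynamin and clathrin, rose to 8.55 ± 0.03 in overexpressing cells, against 7.98 ± 0.02 in control cells (SD, n = 3 each), 1.49-fold (adjusted p = 0.000566). Its neighbours on chromosome 7 had a median of 0.19. The phosphoinositide phosphatase SYNJ2 rose by 0.32 (adjusted p = 0.0185), with a neighbourhood median of 0.22 on chromosome 6, and the dynamin-binding F-BAR protein PACSIN3 by 0.30 (adjusted p = 0.0383). The SYNJ2 probe set is numbered close to that of the member SNX9, so their neighbourhoods probably overlap. With the regional median removed SYNJ2 stood at 0.14 and PACSIN3 at 0.21, and neither was called, while AMPH was, at 0.43. DNAJC6, auxilin, which strips clathrin from vesicles, fell by 0.41 (adjusted p = 0.0113). Of 16 genes of clathrin-independent uptake 3 were higher and 0 lower, with 7 at an unadjusted p under 0.05 (25.0% of all genes) and 2 calls from the ordinary test. The caveolar coat protein CAVIN3 rose 1.43-fold (8.95 ± 0.06 in overexpressing and 8.43 ± 0.05 in control cells, adjusted p = 0.00183), the GTPase ARF6 1.32-fold (adjusted p = 0.00469; neighbourhood median 0.27 on chromosome 14) and ARHGAP26 by 0.26 (adjusted p = 0.0496).

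Further along the endosomal route calls went both ways. Of 32 Rab and tether genes 3 were higher and 5 lower, against 6.38% and 4.53% of all tested genes. VPS8, a subunit of the early endosome tether CORVET, rose by 0.51 (adjusted p = 0.00866) and VPS41, of the late tether HOPS, by 0.33 (adjusted p = 0.0273; neighbourhood median 0.19). The VPS41 probe set is numbered close to that of AMPH, so their neighbourhoods probably overlap. With the regional median removed VPS41 stood at 0.16 and was not called, while VPS8 was, at 0.41. RAB11A, the GTPase of recycling endosomes, fell by 0.35 (adjusted p = 0.00769; neighbourhood median -0.15), and RAB4A, of the fast recycling route, rose by 0.26 (adjusted p = 0.0305). Of 25 ESCRT genes, which sort cargo for degradation, CHMP2B fell by 0.52 (adjusted p = 0.00431) and CHMP4A rose by 0.26 (adjusted p = 0.0135; neighbourhood median 0.14). Of 21 phosphoinositide genes 0 were higher and 2 lower, with 10 at an unadjusted p under 0.05 in either direction (25.0% of all genes) and 1 call from the ordinary test. The 2 were FIG4 and VAC14, partners in the complex that makes the late endosomal lipid, which fell by 0.32 and fell by 0.28 (adjusted p = 0.0248 and adjusted p = 0.0128).

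The other adaptor complexes and the cargo itself gave few calls. Of 22 genes of AP1, AP3, AP4, AP5 and GGA adaptors, AP4S1 was called higher and AP3D1 lower. AP3D1 fell by 0.27 (adjusted p = 0.0111). AP4S1 was dim, at 5.23 ± 0.04 in overexpressing cells and 4.95 ± 0.04 in control cells (SD, n = 3 each). All its control arrays lay below their array medians, so it passed the filter through the overexpression arrays alone. Its difference of 0.27 equalled its neighbourhood median of 0.27 on chromosome 14 and is given without a p-value. Of 10 further PX-domain genes, PXK fell by 0.35 (adjusted p = 0.0174) and 0 rose, with 3 at an unadjusted p under 0.05 (25.0% of all genes) and 0 calls from the ordinary test. Of 21 cargo receptors 2 were higher and 0 lower, with 14 at an unadjusted p under 0.05 in either direction (25.0% of all genes) and 1 call from the ordinary test. The 2 higher were the HDL receptor SCARB1 and the lysosomal cholesterol transporter NPC1, which rose by 0.37 (adjusted p = 0.0310) and 0.27 (adjusted p = 0.0284). Over the 21 cargo receptors 8 differences were positive and 13 negative, the lowest -0.48. Overexpression arrays lay all above the controls for 7 of them and all below for 6, against 17.1% and 12.2% of all tested genes. The calls of VPS35L, AMPH and CAVIN3 held under all 16 alternatives, with differences between 0.65 and 0.78, 0.56 and 0.59, and 0.48 and 0.55 over the fits that left out 1 array. Those of RAB11A, CHMP2B and ARF6 held in all fits that left out 1 array. With the regional median removed, however, ARF6 stood at 0.12 and RAB11A at -0.23, and neither was called, while CHMP2B was, at -0.44. Of these 23 calls, 16, 14 and 14 were lost without overexpression arrays 1, 2 and 3, 8 and 5 without control arrays 1 and 2, and 0 without control array 3. With the regional median removed 12 held and 11 were lost.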

How the data were processed

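The authors deposited log2 values of 70523 features on 6 arrays as 1 table. Per the labels and the submitters' processing notes, the log2 values are RMA values from Affymetrix Expression Console, which background-corrects, quantile-normalizes and summarises probe sets. The sources used here do not give its version or the array's genome build. Array medians lay between 4.97 and 5.03, and precision is limited by having 3 arrays per group.

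Gene names came from the platform annotation (23781 probe sets with 1 symbol, 1543 with several, 45199 features unnamed), updated through RefSeq GRCh38.p14. For each gene the probe set with the highest mean was kept. A gene was tested when it exceeded the array median on at least 3 of 6 arrays. Overexpression minus control was fitted with limma 3.58.1 (lmFit, eBayes; R 4.3.3), and p-values were adjusted over 15823 genes by Benjamini-Hochberg. Simulated data with 200 changed genes gave 199 recovered and 8 false calls among 207. These counts are a check of the code. Recovery of differences as small as those of most called members was not tested separately. Promoters came from RefSeq, GRCh38.p14.

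The members and the lists were chosen with earlier results of these data known. The genes named are the cyclase subunit, the cell type and line markers given as a label check, all members (with array values for those past the threshold, the 5 with the greatest differences among the rest, retromer and AP2), and up to 4 called genes per list. SNX18, SNX24, SNX27, EPN1, CLTA, DNM1 and the single markers were given group or array values after these were seen, and the percentile for neighbourhoods was set then too. The 16 alternatives changed the filter, normalization, probe set choice, variance model, regional median, replicate block or arrays. Python 3.11.15, pandas 2.3.3, numpy 2.4.6 and matplotlib 3.10.9 served for tables and plots.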

Additional observations from a re-analysis of the deposited data

How the results depend on the processing

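With all arrays 1010 genes were higher and 717 lower, 9 members higher and 4 lower, and 18 companion genes (those of the 9 pathway lists) higher and 11 lower. With an ordinary equal-variance test these counts were 246 and 170, 3 and 1, and 5 and 5. With the regional median removed 592 genes, 2 members and 10 companion genes were higher, and 1 member and 7 companion genes lower. Without the filter on dim probe sets 2 members were lower. Leaving out 1 array at a time gave between 306 and 2053 genes higher and between 215 and 1577 lower, between 1 and 16 members higher and between 0 and 5 lower, and between 4 and 40 companion genes higher and between 2 and 30 lower, the highest counts being those without control array 3. Centring, cyclic loess, quantile normalization, a stricter filter, the mean of all probe sets and a variance trend kept all 6 counts within 1.5 times. Centring split all calls into 719 higher and 688 lower, and cyclic loess into 867 and 834. Among GUCY1B3, the called members and the called companion genes named here, none reversed its sign under the alternatives run. The called markers NES, SLC1A3 and TNC were not part of this check.

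The labels do not say that replicate numbers pair the arrays. Correlations of deviations from the group means were 0.28, -0.10 and -0.24 for same-numbered arrays. For arrays with different numbers they lay between -0.39 and 0.34, so the correlations do not settle whether arrays were paired. With the replicate block 589 genes were higher and 439 lower, 6 members higher and 1 lower, and 13 companion genes higher and 7 lower. The design holds 3 arrays a group and no vector control. Scanner files and detection calls were not used here, so signal over background was not assessed.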
